A study of Rattus norvegicus with 352 samples.

Results

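Fam111a and Mpeg1 are 2 neighbouring genes of rat chromosome 1, and they are 2 of the 38354 genes in a table of whole brain RNA from heterogeneous stock rats. They were picked by name because their levels in these same libraries spread widely, so their own levels are described here with no test. On the RefSeq assembly GRCr8, the protein-coding gene Mpeg1 lies at chr1:218876848-218881364 and the protein-coding gene Fam111a at chr1:219065542-219081213. Their start sites are 188.7 kb apart. Libraries were placed in 3 Fam111a classes by its level, which is log2 of CPM plus 1; CPM is the estimated count scaled to a common library total. The low class lies below 2, the middle class from 2 to 4.5 and the high class above 4.5. These classes are ranges of a measured level and not groups of the study.

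All libraries of the table belong to a single group: naive outbred rats that were left untreated, with polyA RNA from a frozen brain hemisphere. Heterogeneous stock rats descend from crosses among inbred founder strains, and each animal carries its own mosaic of founder chromosomes. The labels do not spell out that each library is a separate rat. A p-value here therefore measures the spread between libraries, each taken as 1 rat. No genotypes were used here.

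Fam111a encodes a protease with a trypsin-like domain. It binds PCNA, the sliding clamp of DNA replication, and helps forks to pass proteins that are crosslinked to DNA. It is also known for restricting certain viruses. Mpeg1 encodes perforin-2, a pore-forming protein of the MACPF family that macrophages hold in their endosomal membranes and turn against engulfed bacteria. In the brain it is known as a gene of microglia and border macrophages. In RNA of whole tissue, fewer cells of a type and less RNA per cell cannot be told apart.

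The RefSeq promoter windows of both genes are shown beside their levels, which moved in opposite directions across libraries. The windows are those of the reference assembly and were not read from these rats. Their relation to the levels was not tested. Each window runs from 250 bases before to 50 bases after the RefSeq start on GRCr8, plus strand, 5′ to 3′. Capitals mark matches on either strand to a CCAAT box (CCAAT) or a GC box (GGGCGG). The Fam111a window is chr1:219065389-219065688 and the Mpeg1 window is chr1:218876644-218876943.
Fam111a: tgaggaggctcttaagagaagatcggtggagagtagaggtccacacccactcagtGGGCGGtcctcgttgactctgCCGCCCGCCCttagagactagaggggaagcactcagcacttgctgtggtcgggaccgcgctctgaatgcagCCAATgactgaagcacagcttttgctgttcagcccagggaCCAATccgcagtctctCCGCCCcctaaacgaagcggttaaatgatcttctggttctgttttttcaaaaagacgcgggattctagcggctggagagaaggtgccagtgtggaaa
Mpeg1: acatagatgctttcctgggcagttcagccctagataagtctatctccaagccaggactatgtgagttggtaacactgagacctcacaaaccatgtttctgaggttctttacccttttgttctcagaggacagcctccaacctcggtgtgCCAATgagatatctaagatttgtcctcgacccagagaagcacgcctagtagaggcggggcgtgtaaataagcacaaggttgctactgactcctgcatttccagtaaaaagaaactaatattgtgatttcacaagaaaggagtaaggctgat
The Fam111a window held 2 CCAAT matches and 4 GC box matches, some of them overlapping, and the Mpeg1 window held 1 CCAAT match and 0 GC box matches. Of 33469 promoter windows of this length, 37.5% held a CCAAT match and 33.1% a GC box match on either strand. The GC content was 55.3% for Fam111a and 45.3% for Mpeg1, and the median window had 51.7%. CG dinucleotides numbered 15 in the Fam111a window and 5 in the Mpeg1 window, around a median of 7. Neither window held the PU.1 core GAGGAA, found in 27.6% of windows, or TATAAA, found in 14.2%. Neither held the E2F core TTTCCCGC, found in 0.974%. The windows start from a RefSeq position that lies 97 bases (Fam111a) and 46 bases (Mpeg1) past the start site in the table.

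Libraries summed to between 5418230 and 42980793 estimated counts, with a median of 21881769. Neuronal markers summed to between 6345 and 7351 CPM over the libraries. The identifiers of the libraries fall into 10 blocks by their first 6 characters, and per the labels 14 libraries carry new names after samples had been swapped. One library of the low Fam111a class stood apart and is called the interferon-high library. It had the highest level in 17 of 18 interferon-stimulated genes and in 8 of 19 microglial markers. Its interferon-stimulated genes summed to 699.7 CPM, against at most 333.4 CPM in any other library, and its microglial markers summed to 712.8 CPM, against at most 592.9 CPM. Results on Mpeg1 that rest on it are given with and without it.

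Fam111a fell into separate levels, from under 1 CPM in most low-class libraries to a median of 31.01 CPM in the high class. The low class held 42.98% of the libraries, the middle class 41.8% and the high class 15.2% (52 libraries). The Fam111a level ran from 0.18 through a median of 0.52 to 1.03 in the low class. It ran from 3.02 through 4.07 to 4.48 in the middle class, and from 4.52 through 5.0 to 5.44 in the high class. No library lay between 1.03 and 3.02, whereas the cut at 4.5 fell within a continuous run of values, with 4.48 just below it and 4.52 just above it. The low class is thus set apart by a gap, and the high class is not.

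In CPM, the mean of Fam111a was 0.446 ± 0.168 (SD) in the low class, 15.5 ± 2.71 (SD) in the middle class and 30.7 ± 5.92 (SD, n = 52) in the high class. The middle mean was 34.7 times the low mean, and the high mean was 1.98 times the middle mean. The 2 steps were of nearly equal size on the linear scale, 15.03 CPM from low to middle and 15.2 CPM from middle to high. In estimated counts, low-class libraries held between 2 and 26 Fam111a counts, with a median of 9. Middle-class libraries held at most 550 and high-class libraries a median of 684.5. No library was at 0, so Fam111a was detected in all of them. Its copy Fam111al1, which lies 0.047 Mb away between the 2 genes, had a median level of 0 in each class and reached at most 0.17. The sources used here do not say how reads were shared among Fam111a, Fam111al1 and the pseudogenes Fam111a-ps1 and Mpeg1-ps1, so low levels of both genes are uncertain.

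Mpeg1 ran the other way. Its level ran from 3.19 through a median of 4.86 to 6.12 in the low Fam111a class. It ran from 1.82 through 4.14 to 4.91 in the middle class, and from 1.62 through 2.33 to 4.58 in the high class. The medians fell from class to class while the ranges overlapped. In CPM, the mean of Mpeg1 was 28.8 ± 8.93 (SD), 15.4 ± 5.93 (SD) and 5.84 ± 4.87 (SD, n = 52) from the low to the high class. The low mean was 1.87 times the middle mean, the middle mean was 2.63 times the high mean, and the low mean was 4.93 times the high mean. The differences were -13.4 CPM from low to middle and -9.54 CPM from middle to high. Without the interferon-high library, the mean Mpeg1 level of the low class was 4.82, close to 4.83 with it, and the highest low-class level was 5.59.

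The overlap was largest between neighbouring classes. Of the middle-class libraries, 86.7% had more Mpeg1 than the lowest low-class library, but only 1 exceeded the low-class median. Of the 52 high-class libraries, 47 exceeded the lowest middle-class library, and 4 exceeded the middle-class median. Between the outer classes, 9 of 52 high-class libraries exceeded the lowest low-class library and 0 exceeded the low-class median. Differences between the 3 classes held 65.3% of the variance of the Mpeg1 level over all libraries, given here as a description.

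**Figure D1:**
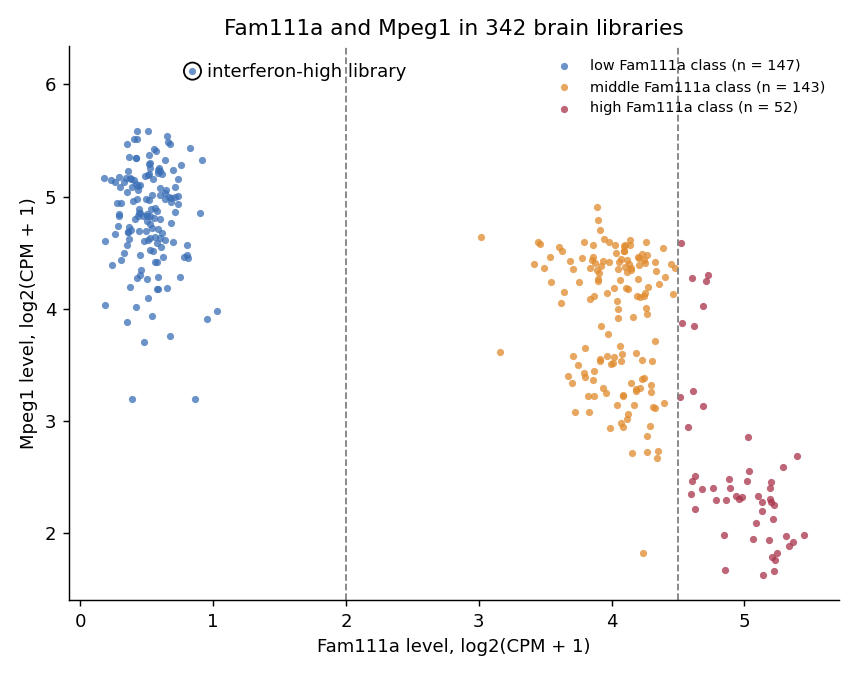
Level of Mpeg1 against level of Fam111a, both as log2(CPM + 1), with 1 point per library coloured by Fam111a class, dashed lines at the cuts of 2 and 4.5 and the interferon-high library ringed. No point lies between Fam111a levels of 1.03 and 3.02, and points with Fam111a of 5 or more have Mpeg1 of at most 2.85.

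Within the middle class, Mpeg1 itself was not evenly spread. Of its libraries, 30 had Mpeg1 levels from 3 to 3.5 (20.98% of the class), 22 from 3.5 to 4 (15.4%) and 60 from 4 to 4.5 (41.96%). In the low class, 59 lay from 4.5 to 5 (40.1%) and 57 at 5 or more (38.8%), and in the high class, 36 of 52 lay below 2.5. One middle-class library stood below all others of that class, at an Mpeg1 level of 1.82 with a Fam111a level of 4.24. The highest library of the high class was at an Mpeg1 level of 4.58 with a Fam111a level of 4.52.

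Within the high class, too, libraries with more Fam111a tended to hold less Mpeg1. Pearson's r of the 2 levels was -0.04 in the low class, -0.20 in the middle class and -0.65 in the high class (n = 52), where Spearman's rho was -0.64. These are descriptions over libraries that share the scaling to library total. When the 2 libraries of most extreme Fam111a were left out, r in the high class was -0.61. Among the 16 libraries with Fam111a from 4.5 to 4.75, the Mpeg1 level was 3.35 ± 0.82 (SD) and ran from 2.22 to 4.58. Among the 10 from 4.75 to 5 it was 2.25 ± 0.24 (SD), and among the 26 at 5 or more it was 2.16 ± 0.33 (SD). Just under the cut, the 26 libraries from 4.25 to 4.5 had an Mpeg1 level of 3.75 ± 0.67 (SD). The libraries just above 4.5 thus held Mpeg1 levels of both the middle and the high class, and r was -0.23 among the 36 libraries at 4.75 or more. The depth of the libraries also moved with both levels in the high class: r with log2 of the library total was -0.29 for Fam111a and 0.28 for Mpeg1, and its part in the relation was not tested.

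The order of Mpeg1 across the classes held inside blocks of libraries that share the start of their identifier. Of the 10 blocks, 5 had at least 3 libraries in each class and together held 91.8% of the libraries. In 5 of these 5 blocks the mean Mpeg1 level was highest in the low class, intermediate in the middle class and lowest in the high class. Block means ran from 4.48 to 4.93 in the low class, from 3.21 to 4.03 in the middle class and from 2.24 to 2.71 in the high class, so the block means of the classes did not overlap. The share of high-class libraries differed between these blocks, from 11.03% to 38.9%. Of the 8 blocks with both low-class and middle-class libraries, all 8 had the higher mean Mpeg1 level in the low class. One smaller block departed from the order: its single high-class library had an Mpeg1 level of 4.30, above the mean of 3.79 of its 2 middle-class libraries.

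**Figure D2:**
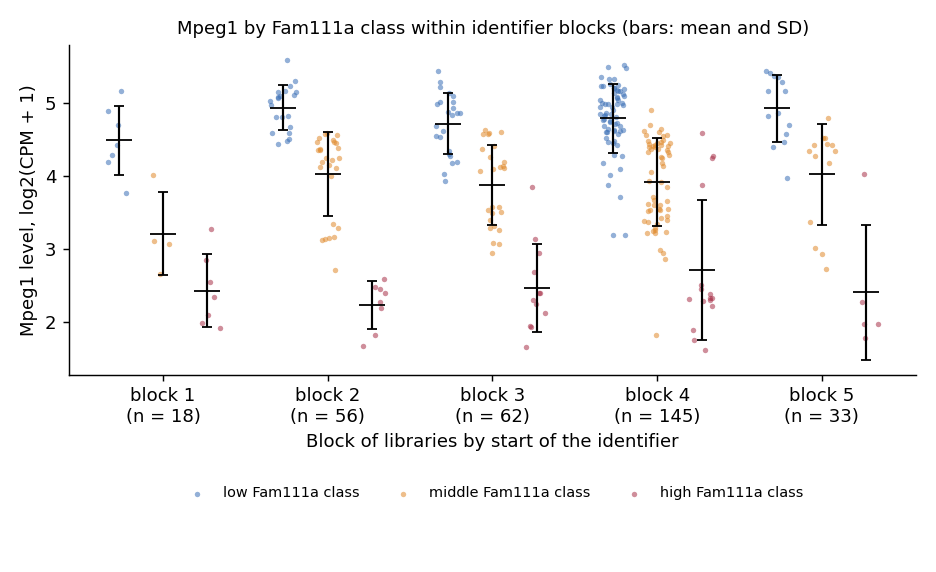
Mpeg1 level, log2(CPM + 1), by Fam111a class within the 5 identifier blocks that hold at least 3 libraries of each class; points are libraries, and bars give the mean and SD. In each block the mean falls from the low to the middle to the high class.

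Across the other genes, few moved with the Fam111a class, and most of those that did lay near the 2 genes on chromosome 1. The change per step of Fam111a class, coded 0, 1 and 2, was fitted for every gene with a mean level of at least 1 with limma, and p-values were adjusted by Benjamini-Hochberg over all 16683. Of the other 16681 genes, 39 passed an adjusted p of 0.05 (0.234% called), 19 higher (0.114%) and 20 lower (0.12%) as the Fam111a class rose. An unadjusted p under 0.05 was reached by 1030. Of the 39, 33 were on chromosome 1, all with start sites within 13.3 Mb of Fam111a or Mpeg1, and 6 were on other chromosomes. The 33 lay mostly to one side: 31 had smaller coordinates than Mpeg1, 1 lay between Mpeg1 and Fam111a, and 1 lay beyond Fam111a. More genes were tested on that side: within the distance of the farthest call, 10.1% of the genes tested at smaller coordinates than Mpeg1 were called, against 2 of 51 (3.92%) at larger ones, and the difference was not tested. Within 1 Mb of either gene, 3 of 9 genes tested were called (33.3%). The share was 9 of 86 (10.5%) from 1 to 5 Mb, 8.33% (16 genes called) from 5 to 10 Mb and 3.31% (5 called) from 10 to 20 Mb. No gene of the 514 from 20 to 50 Mb or of the 1152 farther along chromosome 1 was called by limma, with 17 and 52 at an unadjusted p under 0.05. On other chromosomes 6 of 14577 were (0.0412%).

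With the high class left out, the same limma fit called 12 genes, all among the 39. With the low class left out it called 46, of which 4 were among the 39: Cyb561a3, Fads1, LOC100912041 and Vps37c. Dtx4, Mrpl16, Zfp91, LOC134483958, Ttc9c, Ccs and Ctsf were thus not called from the middle to the high class. Zfp91 was not called with the high class left out either. Ins2, Tpcn2, LOC120097396, LOC134483957, Ifitm3, Dpp3, Dpp3l1, Tp53i11, Kif15 and Ctxn3, described below, were called in neither of these fits. Cfl1l1 and Paqr5, also described below, were not called with the low class left out.

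**Figure D3:**
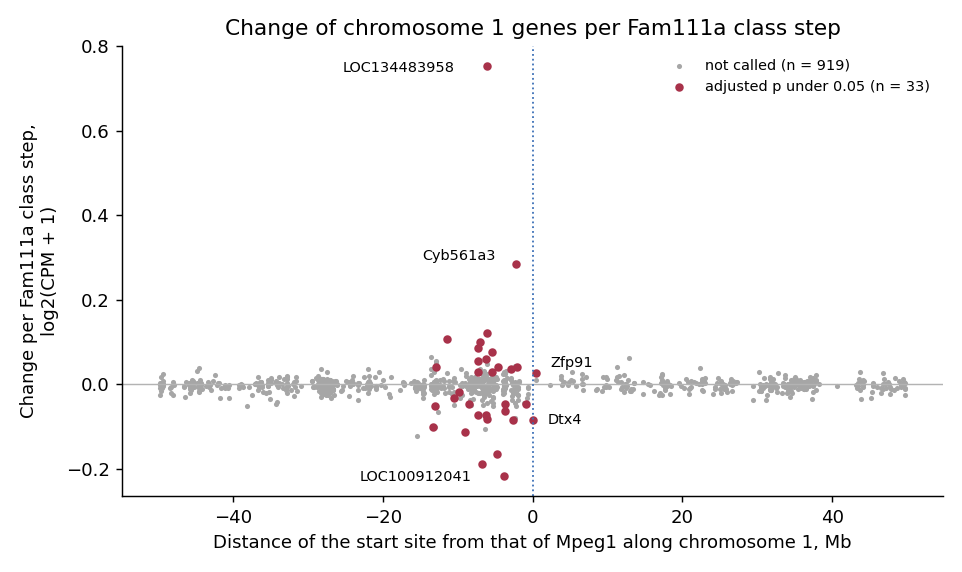
Change in level per Fam111a class step, log2(CPM + 1), of chromosome 1 genes within 50 Mb, by distance of their start site from that of Mpeg1 in Mb; red points passed an adjusted p of 0.05 in limma, grey points did not, and Fam111a and Mpeg1 are not drawn. The red points lie within 13.3 Mb, nearly all on the left, where more genes were tested.

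Of the 9 tested genes within 1 Mb, Dtx4, Mrpl16 and Zfp91 changed with the Fam111a class. Dtx4, which encodes an E3 ubiquitin ligase of the Deltex family, lies directly beside Mpeg1 at chr1:218882391-218969837. Its median level was 5.55 in the low class, 5.44 in the middle class and 5.397 in the high class, with ranges that overlapped. Dtx4 fell by 0.085 ± 0.0068 (SE) per step (adjusted p = 2.75e-26, limma), in the same direction as Mpeg1. Mrpl16, a subunit of the mitochondrial ribosome, fell by 0.047 ± 0.0088 (SE) per step (adjusted p = 0.000162, limma). Zfp91, which encodes a zinc finger protein and lies beyond Fam111a, rose by 0.028 ± 0.0044 (SE) per step (adjusted p = 1.15e-06, limma). Stx3, Patl1, Rpl27al8, Osbp, Cntf and Lpxn did not pass, and their changes were at most 0.032 in size. Each of these changes was small beside the fall of 1.09 per step in the level of Mpeg1.

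The genes most like Fam111a and Mpeg1 over all libraries, ranked by the absolute Pearson r of their levels, were also on chromosome 1. Of the 10 most like Fam111a and the 10 most like Mpeg1, all lay within 7.31 Mb. Cyb561a3, a member of the cytochrome b561 family at chr1:216641108-216662495, had an r of 0.60 with Fam111a and -0.51 with Mpeg1. Its level ran from 2.44 through a median of 2.93 to 3.81 in the low class, from 2.56 through 3.35 to 3.93 in the middle class and from 2.72 through 3.62 to 4.04 in the high class. The ranges overlapped widely, and the mean CPM of the high class was 1.52 times that of the low class. Cyb561a3 rose by 0.285 ± 0.020 (SE) per step (adjusted p = 1.39e-31, limma).

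The long non-coding RNA gene LOC134483958, with its start site at 212866696 on chromosome 1, had a gap in its own levels. Over all libraries it lay either at 1.19 or below or at 2.15 or above. In the low Fam111a class, 84 libraries (57.1%) were below a level of 2 and 9 (6.12%) were at 3 or more. In the middle class, 20 (13.99%) were below 2 and 30 (20.98%) at 3 or more. In the high class, 2 of 52 (3.85%) were below 2 and 30 (57.7%) at 3 or more. These cuts were chosen after its values were seen, and no gap lies at 3, where values ran from 2.999 on to 3.04. Levels on both sides of the gap at 2 were found in each Fam111a class, so this gap did not coincide with that of Fam111a. LOC134483958 rose by 0.753 ± 0.069 (SE) per step (adjusted p = 2.21e-20, limma), and its r was 0.51 with Fam111a and -0.43 with Mpeg1.

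The fatty acid desaturase gene Fads1 had a median level of 7.46, 7.37 and 7.26 from the low to the high class, and it fell by 0.083 ± 0.0091 (SE) per step (adjusted p = 1.35e-14, limma). LOC100912041, a long non-coding RNA gene, fell by 0.216 per step, Ttc9c by 0.062, and Ccs, the copper chaperone of superoxide dismutase, by 0.073. The cathepsin gene Ctsf rose by 0.055 per step. All 4 passed (adjusted p from 1.59e-13 to 1.25e-07, limma). Over 5 Mb away, the called genes of largest change besides LOC134483958 included Ins2 (0.108 per step) and LOC120097396 (0.121), which rose, and Tpcn2, an ion channel gene of endosomes and lysosomes (-0.113), LOC134483957 (-0.188) and Ifitm3, an interferon-induced gene that limits virus entry (-0.101), which fell.

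**Figure D4:**
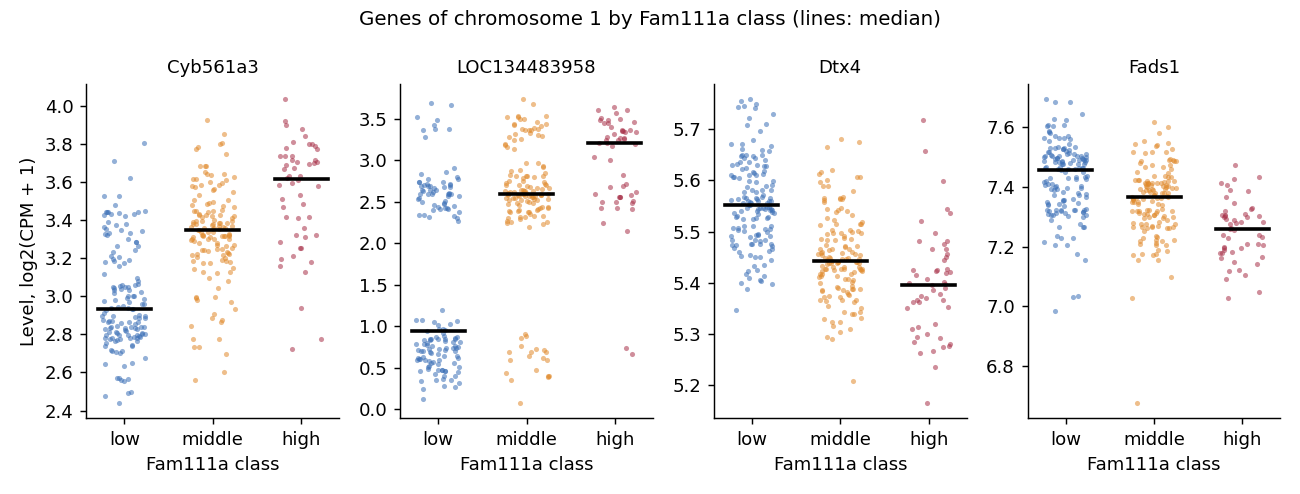
Levels, log2(CPM + 1), of Cyb561a3, LOC134483958, Dtx4 and Fads1 by Fam111a class; points are libraries and lines are medians, and each panel has its own level axis, which does not start at 0. The medians of Cyb561a3 and LOC134483958 rise and those of Dtx4 and Fads1 fall from the low to the high class, and LOC134483958 has points on both sides of its gap from 1.19 to 2.15 in each class.

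Of the 6 called genes on other chromosomes, 2 carry the names of copies of genes in the same part of chromosome 1. Cfl1l1 on chromosome 8 rose by 0.119 per step (adjusted p = 5.99e-05, limma), from a mean level of 1.38 in the low class to 1.60 in the high class. Its namesake Cfl1, 6.65 Mb from Mpeg1, had a change of 0.0094 that did not pass (adjusted p = 0.798, limma). Dpp3l1 on chromosome 3 fell by 0.075 per step (adjusted p = 0.00204, limma), while Dpp3, 7.22 Mb from Mpeg1, rose by 0.031 (adjusted p = 0.00452, limma). How such copies share reads is not stated either, so these 2 levels are uncertain. The other 4 were Tp53i11 on chromosome 3, Paqr5 and Kif15 on chromosome 8 and Ctxn3 on chromosome 18, with adjusted p from 0.0322 to 0.0422 in limma.

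No marker of the cell types that carry Mpeg1 passed the test across the Fam111a classes. The 19 microglial markers in the table summed to a median of 511.1 CPM in the low class, 517.3 CPM in the middle class and 518.3 CPM in the high class. Their ranges, 432.3 to 712.8, 431.1 to 580.9 and 447.4 to 570.0 CPM, covered each other, and none of the 19 had a median count of 0. Mpeg1 was equal to a median of 5.51% of the microglial sum in the low class, 3.41% in the middle class and 0.784% in the high class. Of the 19 markers, 0 passed in the class step fit with limma, 4 reached an unadjusted p under 0.05, 7 had a positive change, and their median change was -0.0034 per step, against -0.00058 over all genes tested. The border macrophage markers summed to medians of 23.03, 23.5 and 22.5 CPM, and 0 of the 6 tested passed in limma, with 1 at an unadjusted p under 0.05.

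None of the remaining MACPF genes tested passed either. C7, Astn1, Astn2, Brinp1, Brinp2 and Brinp3 were tested and 0 of the 6 passed in the class step fit (limma, 0 at an unadjusted p under 0.05), with changes of at most 0.030. Prf1, C6, C8a, C8b and C9, which encode perforin and parts of the terminal complement complex, were too low to be tested, with mean levels of at most 0.38 in each class. Of the lists tied to Fam111a, 0 of 18 tested genes for PCNA, the clamp loader and the replication fork and 0 of 11 for DNA-protein crosslink repair passed, with 3 and 1 at an unadjusted p under 0.05 and median changes of 0.0012 and 0.0015 per step. Over 18 lists of cell type markers and pathways in all, 0 members passed in this limma fit, and 16 reached an unadjusted p under 0.05.

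With all 3 classes fitted together, the genes that moved with Mpeg1 were again few, and most were on chromosome 1. A limma fit of every gene on the Mpeg1 level with the 3 classes as a factor called 9 of 16681 genes (0.054%), 6 higher (0.036%) and 3 lower (0.018%), and 1283 reached an unadjusted p under 0.05. Of the 9, 8 were on chromosome 1, up to 7.02 Mb away. LOC102551693 rose by 0.284 ± 0.044 (SE) per unit of Mpeg1 level (adjusted p = 2.09e-06, limma), and LOC134483957 rose by 0.269 ± 0.045 (SE) (adjusted p = 2.41e-05, limma). Both are long non-coding RNA genes. LOC100910973, LOC134483971, Fam89b and Mrpl16 also rose, and Naaladl1 and LOC120099979 fell. The remaining call, Trim15 on chromosome 20, fell by 0.101 (adjusted p = 0.0367, limma), and without the interferon-high library it did not pass (adjusted p = 0.0565). With the high cut moved up to 4.75, a value chosen after the data were seen, 6 genes were called, of which 4 were among the 9.

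Microglial markers as a list were not called beside Mpeg1 in that fit: 0 of 19 passed in limma, 3 reached an unadjusted p under 0.05, 17 had a positive slope, and the median slope was 0.014 per unit of Mpeg1 level, against -0.0015 over all genes tested. The classes differed in the counts they gave on their own. In the low class alone, 65 genes were called (0.39%), 49 of them higher (0.294%) and 16 lower (0.0959%). In the middle class alone, 0 were called by limma (0%), with 462 at an unadjusted p under 0.05. In the high class alone (n = 52), 78 were called (0.468%), 30 higher (0.18%) and 48 lower (0.288%). Most of these calls were on chromosomes other than chromosome 1, as were 14577 of the 16681 genes tested. On chromosome 1 were 16 of the 65 and 13 of the 78. Within 10 Mb of Mpeg1 or Fam111a were 7 of the 65, and of the 78 Dtx4, Stip1, Ltbp3 and LOC120099979. In both classes, a larger share of the calls than of all genes tested lay within 10 Mb of Mpeg1 or Fam111a. These differences in share were not tested. No gene was called in both the low and the high class, and the difference between classes was not tested.

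In the low class, the microglial marker Aif1, which encodes the protein Iba1, rose with Mpeg1, by 0.131 ± 0.033 (SE) per unit of Mpeg1 level (adjusted p = 0.0409, limma). All 19 markers had a positive slope there, with a median of 0.067, against -0.0023 over all genes tested. With the interferon-high library kept, 11 of the 19 reached an unadjusted p under 0.05 in limma, beside 2423 of all 16681 genes tested. With it left out, 2723 of all genes tested did so, and the markers among them were not counted. Without the interferon-high library, 18 of 19 were positive with a median of 0.049. In the high class the slopes did not share a sign: 8 of 19 were positive, with a median of -0.0071. Aif1 did not pass without that library (adjusted p = 0.0585, limma). Pearson's r of the Mpeg1 level with log2 of the microglial sum was 0.35 in the low class, 0.28 there without the interferon-high library, -0.13 in the middle class and 0.22 in the high class, given as a description.

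Other genes that rose with Mpeg1 in the low class included Npc2, a lysosomal cholesterol carrier (0.110 per unit of Mpeg1 level), and the meningeal fibroblast markers Col3a1 (0.256), Col1a1 (0.233) and Igf2 (0.187). These 4 also passed without the interferon-high library. Igf2 lies on chromosome 1, 11.6 Mb from Mpeg1, and the others lie on other chromosomes. Of the 6 meningeal fibroblast markers, 3 were called, with a median slope of 0.183. Markers of blood and vessels also had positive median slopes in the low class, with 0 called by limma: the median was 0.147 over 4 red blood cell markers (0.143 without the interferon-high library) and 0.061 over 7 of endothelial cells and pericytes (0.069 without it). An unadjusted p under 0.05 in the low class, with the interferon-high library kept, was reached by 4 of these 11 and by 2423 of 16681 genes tested (limma). The part of meningeal tissue, blood and vessels in the Mpeg1 level was not tested. The interferon-stimulated gene Gbp2 rose by 0.215 with the interferon-high library and had a slope of 0.112 without it, which did not pass (adjusted p = 0.159, limma). Without that library, 0.629% of genes were called, 66 of them higher (0.396%) and 39 lower (0.234%), and 56 of the 65 were among them.

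**Figure D5:**
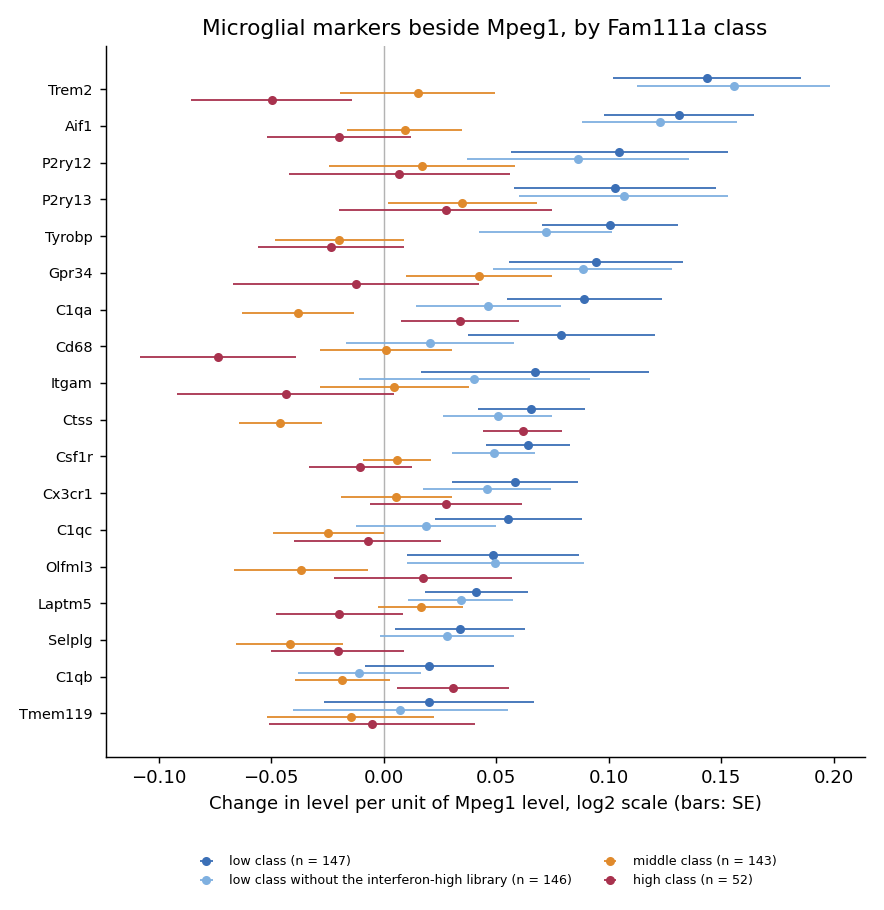
Slope of 18 of the 19 microglial markers on the Mpeg1 level, log2 scale, with bars of 1 SE, in the low Fam111a class, in the low class without the interferon-high library, in the middle class and in the high class. Of the 18 drawn, 18 slopes are above 0 in the low class, 17 without the interferon-high library, 10 in the middle class and 7 in the high class.

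Within its classes, Fam111a was fitted in the same way. Of 16681 genes, 1.29% moved with the Fam111a level once the classes were a factor (limma), 0.743% higher and 0.546% lower (91 genes), and 2875 reached an unadjusted p under 0.05. The share called was 1.3% on other chromosomes, and 0 of the 9 tested genes within 1 Mb were called by limma, with 1 at an unadjusted p under 0.05. The 10 genes most like Fam111a after removal of class means had absolute r up to 0.26. The heat shock genes Hsph1 and Dnajb5, the activity-regulated genes Egr3 and Ptgs2, and also Aebp2 and Xpo1 rose. Amer3, Fbxo21, Pias3 and Fndc10 fell. Hsph1 rose by 0.144 ± 0.029 (SE) per unit of Fam111a level and Egr3 by 0.295 ± 0.061 (SE), each with an adjusted p of 0.00371 in limma. From the crosslink repair list, Top1, which encodes DNA topoisomerase I, rose by 0.102 (adjusted p = 0.0363, limma), the 1 call of 11 tested. From the lysosome list, Hexa rose by 0.081 (adjusted p = 0.0177, limma), the 1 call of 10 tested, and the other 16 lists had 0 called. This count depended on the setting: limma called 72 with the identifier block as a covariate, 4 with a pseudocount of 0.1 and 1 with 10 principal components as covariates. The 72 and the 4 were all among the genes of the main fit, and the 1 was not. Hsph1, Egr3, Top1 and Hexa thus did not pass with 10 principal components. More genes than in the main fit were called with a level minimum of 3, without the renamed libraries and without the libraries of fewest genes detected.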

How the data were processed

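PolyA RNA of brain hemispheres was sequenced in 352 samples named in the labels; 342 libraries are in the table (147 in the low, 143 in the middle and 52 in the high Fam111a class, the n of every class mean ± SD) and 10 were not analysed here. The interferon-high library is brain 342, numbered in accession order. The deposited table holds log2 values of estimated counts plus 1 per gene, made by the authors with kallisto, as the submitters' processing notes name it; no version or setting is stated. Values were turned back to estimated counts, scaled to CPM by library total, and log2 of CPM plus a pseudocount of 1 was taken, which understates changes of low genes. Tests covered the 16683 of 38354 genes whose mean level reached 1, with limma 3.58.1 in R 4.3.3, with a mean-variance trend and Benjamini-Hochberg adjustment over all of them. The values of 1 microglial marker are not reported here. The scripts were tested on simulated data.

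The 2 genes, the cuts and the gene lists were chosen with earlier results of these data known. Named genes were those tested within 1 Mb, Fam111 and MACPF genes, the 10 of largest absolute r with each gene over all libraries and after removal of class means, the 10 called genes of largest change over 5 Mb away, and up to 6 of each list by p beside Mpeg1; others named here were chosen after their values were seen. Sequences came from RefSeq, GRCr8. Of the genes, 38278 matched RefSeq by symbol. Of the estimates, 99.7% for Fam111a and 75.7% for Mpeg1 were within 0.01 of a whole number.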

Additional observations from a re-analysis of the deposited data

How the results depend on the processing

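No paired analysis was possible because all libraries form 1 group and the labels give no replicate numbers. The fall of Mpeg1 across the classes is a description and was not tested. For the class step, limma called 39 genes (0.234%), and the share was 0.57% with 10 principal components, 0.408% with the classes as a factor, 0.0719% with the high class left out and 0.0300% on the values as deposited, which are not scaled for depth. The other settings gave between 26 and 46 genes; 2 of them were chosen after the data were seen (the high cut at 4.75, and the interferon-high library left out). The 46 came with the low class left out, and only 4 of these were among the 39. Of genes beside Mpeg1 within classes, 0.054% were called; the share was 0.132% with 10 principal components, 0.0256% with a level minimum of 3, 0.39% in the low class alone, 0.629% there without the interferon-high library (a setting chosen after the data were seen), 0% in the middle class alone, 0.468% in the high class alone and 99.8% as deposited. Of genes beside Fam111a within classes, 1.29% were called. The share was 0.00599% with 10 principal components, where the 1 gene called was not among those of the main fit. The share was 0.432% with the block, 0.498% with median ratio scaling and 0.432% with no level minimum. It was 0.024% with a pseudocount of 0.1 and 99.8% as deposited. The cause of these differences was not tested, except that unscaled values move with library depth: they shift the median slope of all genes from -0.0015 to 0.28 beside Mpeg1 and from 0.0039 to 0.47 beside Fam111a. On them the slopes of LOC120099979, Naaladl1 and Trim15 beside Mpeg1 turned positive (0.18, 0.18 and 0.17), as did those of Amer3, Fbxo21, Pias3 and Fndc10 beside Fam111a (0.45, 0.46, 0.45 and 0.42), each below the median of all genes there. No called gene named for the class step turned its direction. Fam111a in the low class rests on 2 to 26 counts per library, which limits its precision there.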
